A study of Mus musculus with 12 samples.

Results

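Cerebella of mice that had lost Atr were compared between 2 ways of keeping the cells from dying: loss of Bax and Bak, and loss of p53. The comparison takes in 6 of the 12 samples of the study, all from C57BL/6 cerebellum at postnatal day 3. Both mutants carry Math1-Cre and Atr-loxP/loxP. The 3 Atr BaxBak mutants have Bax-loxP/loxP and Bak--/- in addition, and the 3 Atr p53 mutants have p53-loxP/loxP. The same contrast without floxed Atr, used beside it, sets 3 BaxBak controls (Math1-Cre, Bax-loxP/loxP and Bak--/-) against 3 p53 controls (Math1-Cre and p53-loxP/loxP). All 12 animals therefore carried Math1-Cre, a recombinase driven by regulatory sequence of Atoh1 (Math1), which acts in the granule cell lineage, while the Bak alleles carry no loxP sites in the label and do not depend on the Cre. Glia, Purkinje cells, interneurons and vessels keep intact Atr, p53 and Bax genes and contribute to the RNA, which came from whole cerebella with the meninges removed. The mutants differ in p53 and in Bax and Bak at once, so an effect of the one cannot be told apart from an effect of the other.

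ATR is a kinase that senses stalled replication forks, holds back late origins and entry into mitosis, and protects forks from breaking. Granule cell precursors, the most numerous dividing cells of the early postnatal cerebellum, multiply in its outer layer under Sonic hedgehog before they leave the cycle. Damage that they cannot repair stabilises p53, a transcription factor that induces inhibitors of the cell cycle and genes of apoptosis, among them genes whose proteins act on mitochondria through Bax and Bak. Without Bax and Bak this death pathway is blocked downstream of p53, whereas without p53 the transcription itself is lost.

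Values are log2 signals of single probe sets, each for an exon region or an exon junction, as the authors deposited them. Gene names are at hand only where a probe set passed the authors' test of Atr BaxBak mutants against BaxBak controls, which covers 7920 genes. Since the 3 Atr BaxBak mutants are in that test too, counts and medians over named genes are selected here and are no independent evidence of direction; counts over all 719071 probe sets are not selected. A gene's value is the mean over its named probe sets, and any count of a gene's probe sets covers only these. They are selected in the same way: 33.2% of named probe sets passed between the mutants, against 2.19% of all others. That most probe sets of a gene passed is therefore no independent evidence either. A gene is called when this mean passes limma's test over all named genes (Benjamini-Hochberg adjusted p under 0.05) and at least 1 of its probe sets passes over the whole array in the same direction and none in the other. The labels name no litters, so a p-value here measures only how these samples spread, which may be technical in part.

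Across the array, 14477 probe sets were higher in the Atr BaxBak mutants (2.01% of those tested) and 10893 were lower (1.51%), together 3.53%. Fitted together, exon regions and junctions were called at similar rates, 3.64% and 3.36%. Fitted apart, 22001 of 437027 exon regions and 5329 of 282044 junctions were called, so the likeness holds for the joint fit only. The median size of the difference among called probe sets was 0.75 on the log2 scale. The same contrast between the controls called 693 probe sets, or 0.0964%. The difference between those contrasts passed for 582 probe sets (0.0809%), 317 of them in the direction of a larger value in Atr BaxBak mutants. Single samples weighed on these counts: without Atr BaxBak mutant 1, 2 or 3 the mutant contrast called 10093, 11771 and 9633 probe sets, and without Atr p53 mutant 3 it called 12107. The control contrast called 321 without BaxBak control 1, 306 without BaxBak control 2 and 407 without p53 control 3, and the difference between the contrasts ranged from 167 to 1034 as 1 sample of the 12 was left out. With the mean negative control signal as a covariate that difference fell to 131 probe sets, 101 of them larger in Atr BaxBak mutants. Its majority turned without Atr p53 mutant 2 (397 higher, 637 lower), with a variance trend (1398 and 1630) and among bright probe sets (547 and 628), so it has no settled direction. On the first principal component, which held 21.36% of the variance of all 12 samples, the Atr BaxBak mutants lay at -243, -165 and -186, apart from the Atr p53 mutants at 60.4, -14.3 and 110.

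Some technical measures differed between or within the mutant groups. The mean log2 signal of the negative control probe sets was 4.58, 4.40 and 4.32 in the Atr BaxBak mutants and 4.23, 4.50 and 4.15 in the Atr p53 mutants. The groups overlap in this measure, with Atr p53 mutant 2 among the brighter arrays. All Atr BaxBak mutants share a number in their sample titles that no other group holds. All Atr p53 mutants share another, which p53 control 1 holds too, while p53 controls 2 and 3 share a different one. No source used here says what these numbers mark, and between the mutants they cannot be told apart from genotype. Over all probe sets p53 control 1 correlated with the Atr p53 mutants at 0.990, 0.984 and 0.991, and with the other p53 controls at 0.986 and 0.985. With the title number as a random block, added after seeing the data, the estimated correlation was 1e-04. At that value the fit is nearly the main one, so its 693 control calls are no separate check of the title number. Without p53 control 1 the control contrast called 754 probe sets. Probe sets of the Y chromosome were dim in 1 sample of each mutant group, at means of 3.09 and 3.23 against 3.63 to 3.76 in the other mutants, which puts 1 such sample on each side of the comparison. Among the controls, BaxBak control 1 was dim too, at 3.26 against 3.59 and 3.78 in the other BaxBak controls. The p53 controls lay between 3.60 and 3.64, so the contrast of the controls is not balanced in this measure.

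Trp53, the gene for p53, is the floxed gene whose RNA could be followed. Its mean over 6 named probe sets was 9.68, 9.75 and 9.78 in the Atr BaxBak mutants and 8.79, 8.78 and 8.78 in the Atr p53 mutants. The groups did not overlap, and the difference was 0.96 ± 0.06 (SE; 1.94-fold, adjusted p = 1.05e-06, limma). Between the controls the same difference was 0.40 ± 0.06, from means of 9.07 and 8.66. The probe sets were not alike: a junction stood at 11.14, 11.40 and 11.32 against 9.95, 9.77 and 10.05 and differed by 1.36, and the exon region that differed least stood at 6.60, 6.32 and 6.55 against 6.21, 6.49 and 6.00 (0.26 ± 0.15, adjusted p = 0.396 over the array, limma). Cells outside the Math1-Cre lineage keep the gene and contribute RNA, and no source used here tells which probe sets lie inside the deleted part. No named probe set carries the symbol of Atr, Bax or Bak1, and these genes are not analysed here.

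Genes that p53 is known to induce were mostly higher in the Atr BaxBak mutants. Of 13 named genes for feedback on p53 and for arrest of the cycle, 11 were called higher and 1 lower, of 16 that promote cell death 11 and 1, and of 29 in metabolism, repair and other roles 20 and 3. Over all named genes, 1180 (14.9%) were called higher and 1642 (20.7%) lower, and from the 6 mutants alone the balance turned, with 519 higher and 453 lower. The list medians were 0.92, 0.62 and 0.85 on the log2 scale beside -0.14 over all named genes, and in the contrast of the controls they were 0.02, -0.01 and 0.03. The lists were chosen with earlier results of these data known.

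Among the feedback and arrest genes, Cdkn1a encodes p21, an inhibitor of cyclin-dependent kinases. Its 10 probe sets averaged 10.875, 11.002 and 10.882 in the Atr BaxBak mutants and 9.50, 9.51 and 9.66 in the Atr p53 mutants. That was a difference of 1.36 ± 0.07 (2.57-fold, adjusted p = 2.62e-07, limma), and the controls stood with the Atr p53 mutants, at 9.44 (BaxBak) and 9.52 (p53). Trp53inp1, whose protein acts in p53-dependent stress responses, stood at 9.63, 9.76 and 9.55 against 7.50, 7.79 and 7.76, a difference of 1.96 ± 0.09 (adjusted p = 1.26e-07, limma), and all 15 of its probe sets passed. Mdm2, the ubiquitin ligase that degrades p53, stood at 9.870, 9.877 and 9.869 against 9.003, 9.122 and 9.134, with a difference of 0.79 ± 0.05. The RNA-binding protein gene Zmat3 (0.92) and the antiproliferative gene Btg2 (0.997) were also higher, and the kinase gene Plk3 was lower (-0.35 ± 0.07).

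A script searched the 250 bases before each gene's start in RefSeq (GRCm38.p6) for a pair of CATG cores with 6 bases between them, the core of a p53 element on either strand. It occurs at the first listed start of 0.507% of 27025 genes and, in 1 of 9 feedback and arrest genes (Cdkn1a), 0 of 14 death genes and 0 of 25 of the other p53 targets with a sequence there. The stretch is shown with the matched letters in capitals, because Cdkn1a is the arrest gene most often used as a readout of p53. It lies on the plus strand at chr17:29090729-29090978, and ends just before a listed start.
Cdkn1a: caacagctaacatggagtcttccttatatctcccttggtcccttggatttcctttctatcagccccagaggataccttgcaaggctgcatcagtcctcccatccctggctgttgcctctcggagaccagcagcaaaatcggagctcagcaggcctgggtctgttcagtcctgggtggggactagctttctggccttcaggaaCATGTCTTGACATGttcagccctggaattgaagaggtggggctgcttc
The match is a description of the letters, not a site shown to be bound here. No match at another gene says only that these letters are not in this window.

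Among the death genes, receptors of the cell surface had the largest differences. Fas, a death receptor, stood at 6.65, 6.73 and 6.54 in the Atr BaxBak mutants and at 4.22, 4.27 and 4.06 in the Atr p53 mutants. The latter lie under the mean of the negative controls in their group (4.30), so Fas was at least 5.08-fold higher (log2 2.46 ± 0.07, adjusted p = 3.15e-09, limma, 12 of 12 probe sets passing). Eda2r, a receptor for a ligand of the tumour necrosis factor family, stood at 8.76, 8.76 and 8.51 against 6.57, 6.48 and 6.75 (4.21-fold). Tnfrsf10b, a receptor for the death ligand TRAIL, stood at 7.86, 8.04 and 7.86 against 5.93, 5.82 and 6.25 (3.79-fold).

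Genes whose products act on mitochondria upstream of Bax and Bak were among those called. Pmaip1 (Noxa) stood at 7.85, 7.93 and 7.97 against 6.32, 5.86 and 6.16, a difference of 1.81 ± 0.12 (adjusted p = 1.18e-06, limma). Bbc3 (Puma) differed by 1.29, and Pidd1, which activates caspase-2, by 1.23 ± 0.07. Bid, which links death receptors to mitochondria, went the other way, at 8.001, 8.058 and 8.108 against 8.50, 8.59 and 8.61 (-0.51 ± 0.06). In the list of the apoptosis machinery itself, 2 of 12 named genes were called higher and 2 lower, again near the shares over all named genes, with a median of -0.14: Bcl2l11 (Bim, 0.81 ± 0.07, but 0.25 on its brightest probe set) and the apoptosome gene Apaf1 (0.48, 1 probe set) were higher, and Bid and Bok (-0.67) lower.

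In the third group of p53 targets, Ano3, a gene of the anoctamin membrane proteins, rests on 40 probe sets, all of which passed. It stood at 7.48, 7.49 and 7.34 against 5.33, 5.52 and 5.44, a difference of 2.01 ± 0.07 (adjusted p = 1.48e-08, limma), and of 0.52 between the controls. The DNA polymerase gene Polk, which copies past damaged bases, differed by 1.17 ± 0.07, and D630023F18Rik by 1.60 ± 0.08. For Cd80, a costimulator of T cells, the mean over 15 probe sets differed by 2.54 ± 0.13, but its brightest probe set differed by 0.42 (adjusted p = 0.26 over the array, limma). For Dcxr, a sugar reductase, those values were 1.40 and 0.41 (adjusted p = 0.062). The called genes in the other direction were Tmem41a (-0.61 ± 0.08), 9630033F20Rik (-0.50, the locus of Tigar) and Trp53i11 (-0.46). Trp53i11 did not pass on its brightest probe set (-0.26), on exon regions only (-0.26) or on the median of its probe sets (-0.29).

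**Figure D1:**
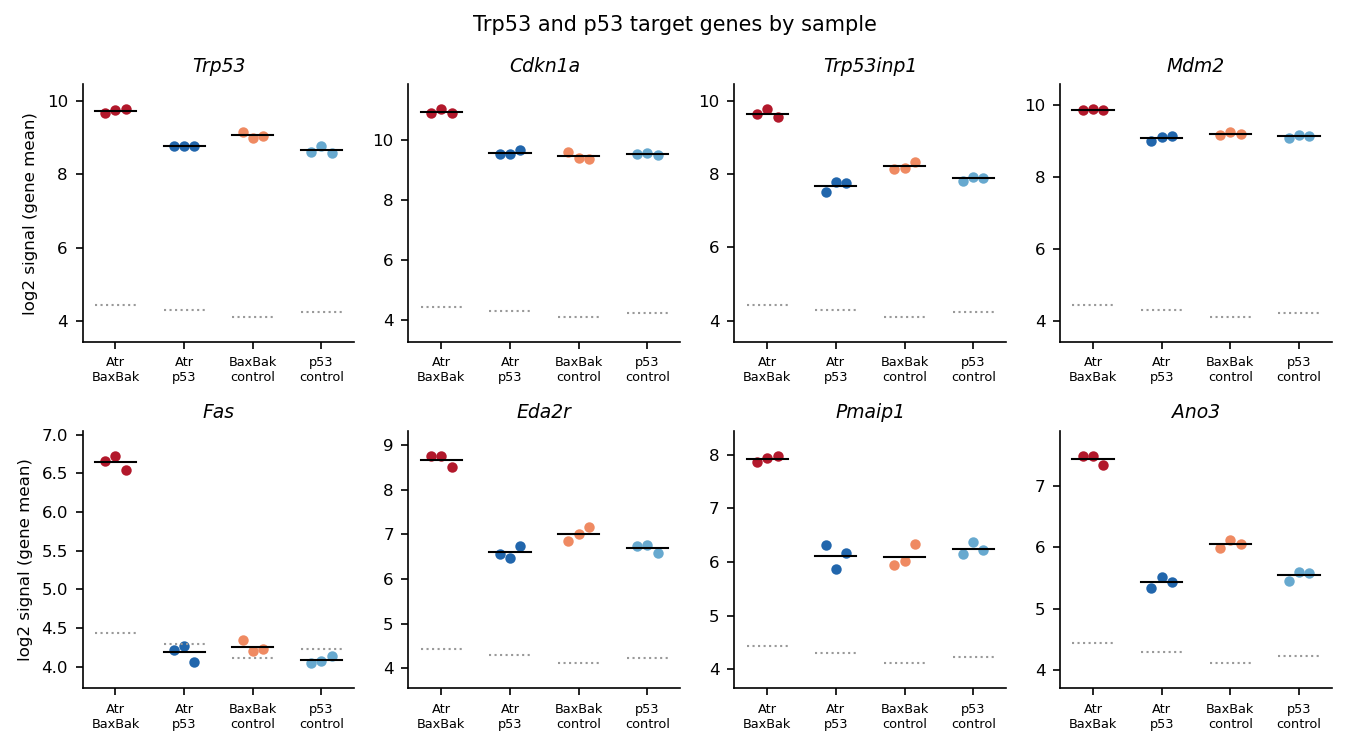
Log2 signal (mean of the named probe sets) of Trp53 and 7 p53 target genes in each of the 12 samples; points are samples, black lines group means, and dotted grey lines the group's mean of the negative control probe sets. The 3 Atr BaxBak mutants lie above all other samples in every panel, and Fas lies near the negative controls in the other groups.

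Genes that dividing cells need were lower in the Atr BaxBak mutants than in the Atr p53 mutants. All 51 genes of replication origins, helicase and polymerases were named, and 42 were called lower and 0 higher. For genes of deoxynucleotide supply it was 10 of 15, for mitosis genes 54 of 61, and for histone genes 18 of 23, each with 0 called higher (20.7% of all named genes were called lower). The list medians were -0.63, -0.55, -0.64 and -0.67, and in the contrast of the controls they were 0.00, 0.02, 0.15 and 0.19. Of the named genes as a whole, 75.5% did not overlap between the mutant groups, and of these lists 44 of 51, 13 of 15, 53 of 61 and 22 of 23 did not.

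Within the Atr p53 group the samples were not alike in these genes. The mean log2 level of the replication list was 7.65, 7.76 and 7.61 in the Atr BaxBak mutants and 8.35, 8.13 and 8.43 in the Atr p53 mutants, while the BaxBak controls ranged from 8.50 to 8.60 and the p53 controls from 8.47 to 8.62. Mitosis genes stood at 7.86, 8.03 and 7.82 against 8.70, 8.37 and 8.78. For these the BaxBak controls ranged from 8.81 to 8.94, while the p53 controls ranged from 8.68 to 8.77, so that Atr p53 mutant 1 lay within them and mutant 3 just above. Atr p53 mutant 2 was the lowest of its group in both lists, and it is also the array with the brightest negative controls of that group. The mutant groups did not overlap in either list. In bulk RNA, fewer dividing cells and less of these RNAs per cell cannot be told apart.

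Gins2, a subunit of the helicase that opens DNA at origins, stood at 7.36, 7.40 and 7.48 against 8.33, 8.48 and 8.36, a difference of -0.97 ± 0.06 (adjusted p = 4.53e-07, limma). The clamp loader genes Rfc4 (-0.85) and Rfc5 (-0.72), the primase gene Prim1 (-0.92) and the origin kinase gene Cdc7 (-0.61) differed in the same direction. Tyms, which makes thymidylate, stood at 7.58, 7.77 and 7.50 against 8.48, 8.48 and 8.59 (-0.90 ± 0.07). The nucleotide genes Tk1 (-0.79) and Dut (-0.61) were lower as well. Tyms-ps, on 1 probe set (-0.75), is a copy of Tyms, and the array may not tell them apart. Of the histone genes, the linker histone gene Hist1h1b stood at 7.13, 7.26 and 6.81 against 8.15, 8.22 and 8.23 (-1.13 ± 0.09). Histone genes are near copies of each other and are given with that reserve.

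Cdk1, the kinase that drives entry into mitosis, stood at 7.77, 7.88 and 7.68 in the Atr BaxBak mutants and at 8.69, 8.66 and 8.79 in the Atr p53 mutants, a difference of -0.94 ± 0.06 (adjusted p = 9.59e-07, limma). The kinetochore genes Ndc80 (-1.10 ± 0.10, 27 of 28 probe sets passing) and Nuf2 (-0.99) and the survivin gene Birc5 (-0.74) were also lower. Haus2, of the augmin complex of the spindle, rests on 2 probe sets and lay under the negative controls in the Atr BaxBak mutants, at 3.10, 3.12 and 2.69 against 6.32, 6.46 and 6.76, so it was at least 4.22-fold lower. Its value lies far from the rest of its list, where the next is Bub1 at -1.32.

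Promoters of the named mitosis genes were searched for 2 motifs known as cell cycle elements, the CHR (TTTGAA or TTCGAA) and the CCAAT box (CCAAT), neither of which is contained in the other. On either strand of the 250 bases before the start, CHR letters occur in 36.2% of 47 mitosis genes with a RefSeq sequence and in 17.4% of 27025 genes. CCAAT occurs in 70.2% and in 34.5%. For the 42 replication genes the shares were 16.7% and 57.1%. Shown are 3 of the called mitosis genes that hold both, with the matches in capitals. They were taken in order of p, but not every gene was eligible, so others with a smaller p may be missing. Cdk1 is on the minus strand at chr10:69352913-69353162, Ccnb2 on the minus strand at chr9:70421555-70421804, and Espl1 on the plus strand at chr15:102296043-102296292, all in GRCm38.p6.
Cdk1: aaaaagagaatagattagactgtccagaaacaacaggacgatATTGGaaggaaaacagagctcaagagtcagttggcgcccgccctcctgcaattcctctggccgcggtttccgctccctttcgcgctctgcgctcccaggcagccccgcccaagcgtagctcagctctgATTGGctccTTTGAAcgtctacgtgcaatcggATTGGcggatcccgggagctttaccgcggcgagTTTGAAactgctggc
Ccnb2: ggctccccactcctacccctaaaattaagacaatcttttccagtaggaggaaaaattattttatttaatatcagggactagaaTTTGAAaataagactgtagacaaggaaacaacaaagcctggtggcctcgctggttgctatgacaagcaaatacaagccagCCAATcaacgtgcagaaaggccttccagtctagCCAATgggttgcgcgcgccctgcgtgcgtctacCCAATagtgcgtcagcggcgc
Espl1: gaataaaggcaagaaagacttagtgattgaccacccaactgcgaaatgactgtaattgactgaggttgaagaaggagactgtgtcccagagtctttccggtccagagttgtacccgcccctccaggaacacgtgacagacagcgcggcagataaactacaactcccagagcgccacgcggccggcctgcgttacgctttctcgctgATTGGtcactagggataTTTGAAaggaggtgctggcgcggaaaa
Cdk1 holds 2 CHR and 3 CCAAT matches, Ccnb2 1 and 3, and Espl1 1 and 1. Ccnb2, the partner cyclin of Cdk1, differed by -1.06 and Espl1, the protease that parts sister chromatids, by -0.72. A match is no evidence of binding.

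Repair genes were lower too, in a smaller share. Of 34 named genes of homologous recombination and the Fanconi pathway, 19 were called lower and 1 higher, with a median of -0.46. Over all named genes the shares were 20.7% lower and 14.9% higher. Exo1, a nuclease that resects broken ends, stood at 6.85, 6.81 and 6.63 against 7.72, 7.39 and 7.78 (-0.87 ± 0.10, adjusted p = 2.74e-05, limma). The Fanconi ligase gene Fancl (-0.89 ± 0.08), the nuclease gene Eme1 (-0.64) and the resection gene Rbbp8 (-0.77) were lower. Helq, a helicase gene on 1 probe set, was higher (0.98 ± 0.22). In the list of checkpoints and damage signals 8 of 19 were called lower and 0 higher, with a median of -0.37. The fork protection gene Tipin (-0.79 ± 0.07), Chek1, the kinase that ATR activates (-0.71 ± 0.11), and Chek2, the corresponding kinase of the ATM pathway (-0.66 ± 0.09), were among them.

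**Figure D2:**
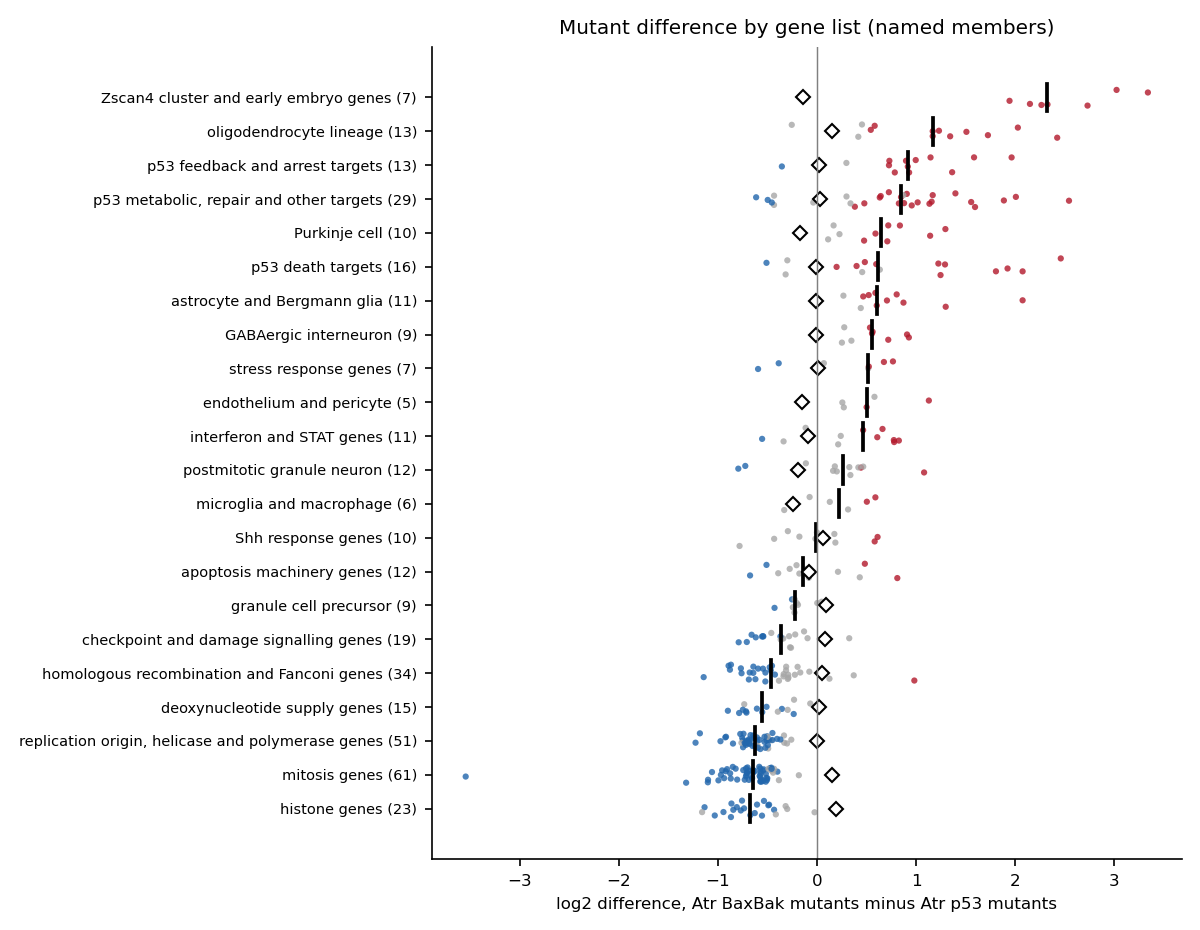
Log2 differences (Atr BaxBak mutants minus Atr p53 mutants) of the named members of each list with 5 or more of them, their number in brackets; red points are genes called higher, blue called lower, grey not called, black bars the list medians, and open diamonds the list medians in the contrast of the controls. The control medians lie between -0.24 and 0.19 while the mutant medians range from -0.67 to 2.33.

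The tissue label was checked against markers of the granule cell lineage, which were bright in every sample: 9 named genes of granule cell precursors had mean log2 levels of 10.01, 10.02 and 9.99 in the Atr BaxBak mutants and 10.22, 10.09 and 10.29 in the Atr p53 mutants. The groups did not overlap, and both lay under the controls, which ranged from 10.34 to 10.60. Of those 9, 2 were called lower, a share near the 20.7% of all named genes, and 0 higher, and the median was -0.23. In this list, the transcription factor gene Pax6 stood at 9.15, 9.10 and 9.06 against 9.57, 9.35 and 9.68 (-0.43 ± 0.08, adjusted p = 0.000672, limma), and Barhl1 differed by -0.25 ± 0.09. On the brightest probe set Pax6 differed by -0.21 and Barhl1 by -0.14, neither of which passed, and Barhl1 was not called without Atr BaxBak mutant 2 (-0.24) or 3 (-0.22) or Atr p53 mutant 1 (-0.24) or 3 (-0.20). Atoh1, whose regulatory sequence drives the Cre, differed by -0.19 and was not called. Of 10 named Shh response genes, 2 were called higher, near the 14.9% of all named genes, and 0 lower, with a median of -0.01. The called pair, Smo and Nkx2-2, rest on 1 probe set each, and the Shh transcription factor gene Gli1 differed by -0.02.

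Of 12 named genes of later granule neurons, 2 were called higher and 2 lower, shares near those over all named genes (14.9% and 20.7%), with a median of 0.26. The synaptic vesicle fusion gene Snap25 was higher, at 8.36, 8.34 and 8.33 against 7.27, 7.30 and 7.22 on its 1 probe set. The axon growth gene Gap43 was lower, at 9.72 in all 3 Atr BaxBak mutants against 10.28, 10.56 and 10.49 (-0.72 ± 0.07), and so was Tlx3 (-0.79 ± 0.10, 1 probe set). Of 3 named markers of unipolar brush cells and glutamatergic nuclei, 2 were called lower and 1 higher (0.61), so the list has no common direction. Eomes (Tbr2) stood at 8.67, 8.66 and 8.36 against 9.64, 9.64 and 9.81, a difference of -1.14 ± 0.10 (adjusted p = 7.96e-06, limma), and of -0.44 between the controls. Otx2 was also lower (-0.61).

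Markers of cells that Math1-Cre does not reach were higher in the Atr BaxBak mutants. In the oligodendrocyte list 10 of 13 named genes were called higher and 0 lower (median 1.17), in the astrocyte and Bergmann glia list 9 of 11 and 0 (0.60), in the Purkinje cell list 7 of 10 and 0 (0.65), and in the GABAergic interneuron list 6 of 9 and 0 (0.56). Of all named genes, 14.9% were called higher and 20.7% lower. The mean log2 level of the oligodendrocyte list was 8.62, 8.44 and 8.86 in the Atr BaxBak mutants and 7.52, 7.52 and 7.58 in the Atr p53 mutants. That of the astrocyte list was 9.60, 9.54 and 9.65 against 8.83, 8.79 and 8.81, that of the Purkinje list 9.60, 9.70 and 9.68 against 8.99, 9.15 and 8.95, and that of the interneuron list 10.14, 10.27 and 10.29 against 9.63, 9.64 and 9.72. None of these groups overlap, and these lists moved in the samples in which the replication lists were low. Their part in the other results was not tested.

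Gfap, the intermediate filament gene of astrocytes, had the largest difference of its list, at 11.34, 11.41 and 11.83 against 9.47, 9.68 and 9.22 (2.07 ± 0.21, 4.21-fold, adjusted p = 1.76e-05, limma). The control means lay between these groups, at 10.29 (BaxBak) and 9.89 (p53). The water channel gene Aqp4 differed by 1.30 ± 0.13 on 1 probe set. Sox10, a transcription factor of the oligodendrocyte lineage, stood at 9.06, 8.92 and 9.21 against 7.86, 7.86 and 7.96 (1.17 ± 0.09). The myelin lipid gene Ugt8a (2.03, 1 probe set), Bcas1 (1.51), Gpr17 (1.34) and the myelin regulator Myrf (1.17) were higher too, while Pdgfra, which marks the precursors of the lineage, differed by -0.25 and was not called.

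Of the inhibitory neuron genes, Gad1, which makes GABA, rests on 35 probe sets and differed by 0.72 ± 0.06, the glycine transporter gene Slc6a5 by 0.93 ± 0.07, and the Purkinje cell genes Itpr1 by 0.84 ± 0.08 and Rora by 0.71 ± 0.06. Of 6 microglia markers 2 were called, Itgam (0.59) and P2ry12 (0.50), and of 5 vessel markers 2, Pdgfrb (1.13, 1 probe set) and Vwf (0.50). These and the following lists are small, beside 14.9% of all named genes called higher and 20.7% lower. Of 2 meningeal markers, Bgn was called. It lay under the negative controls in the Atr p53 mutants (at least 1.45-fold higher), and Col1a1 stood at -0.10. Neither of 2 erythroid markers was called. Of 3 markers of brainstem and midbrain, 2 were lower, En1 (-0.77) and Hoxb3 (-0.79), each on 1 probe set, and the only named choroid plexus marker was Otx2.

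**Figure D3:**
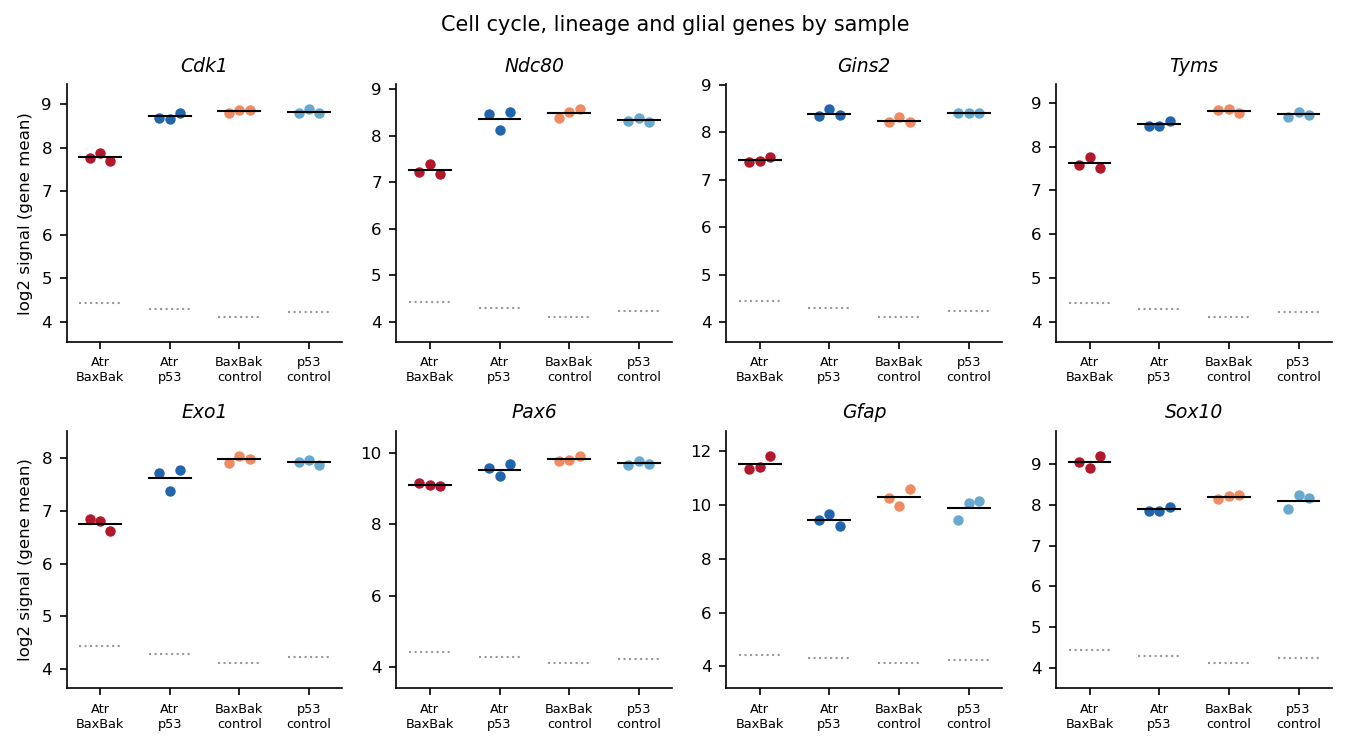
Log2 signal (mean of the named probe sets) of 5 cell cycle and repair genes, the granule lineage gene Pax6 and the glial genes Gfap and Sox10 in the 12 samples; points are samples, black lines group means, and dotted grey lines the group's negative control mean. The Atr BaxBak mutants are lowest in the first 6 panels and highest in the last pair.

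The Zscan4 cluster, genes transcribed in early embryos and in a fraction of embryonic stem cells, was higher in the Atr BaxBak mutants. All 7 named members of its list, which takes in other early embryo genes, were called higher (14.9% of all named genes), with a median of 2.33. Among the 7 is Usp17le, which is no Zscan4 gene and differed by 1.94, but by 0.37 on its brightest probe set. Zscan4c stood at 5.77, 6.51 and 7.59 in the Atr BaxBak mutants and at 3.56, 2.81 and 3.48 in the Atr p53 mutants, where it lay under the negative controls, as it did in both control groups. It was at least 5.02-fold higher (adjusted p = 2.16e-05, limma). For Zscan4d the lower bound was 4.37-fold, for Zscan4a 2.97-fold, for Zscan4f 2.79-fold, for Zscan4b 2.22-fold and for Zscan4e 2.12-fold. The bounds hold for the mean over probe sets and not for each probe set. On the brightest probe set the log2 difference was 0.54 for Zscan4a and 1.16 for Zscan4b and Zscan4e. It was 1.67 for Zscan4d and 3.79 for Zscan4c and Zscan4f. Atr BaxBak mutant 1 was the lowest and mutant 3 the highest of its group for each of them, and the list mean was 5.29, 5.83 and 6.93. The Zscan4 genes are near copies whose probes may not tell them apart, so they count as a family and not as separate genes.

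Outside that family, 5 others were among the 10 genes with 3 or more probe sets whose fitted differences were highest. Alox5, the enzyme that starts leukotriene synthesis, rests on 32 probe sets that all passed, and stood at 7.36, 7.55 and 7.47 against 4.92, 4.84 and 4.94 (2.56 ± 0.07, 5.90-fold, adjusted p = 1.29e-09, limma). Zfp750, a transcription factor known from skin, differed by 2.53 ± 0.12, and the interferon-inducible GTPase gene Igtp was at least 4.49-fold higher. The remaining pair were Fas and Cd80. Among 11 named interferon and STAT genes, 6 were called higher and 1 lower (14.9% and 20.7% of all named genes). Their median was 0.47. The peptide transporter gene Tap1 (0.83 ± 0.06) and the transcription factor gene Stat3 (0.47 ± 0.05) were higher, and Ifit2 was lower (-0.55, 1 probe set).

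Of 7 named stress response genes, 3 were called higher and 2 lower (14.9% and 20.7% of all named genes), the lower ones near that share. Their median was 0.52. The transcription factor gene Atf3 stood at 6.98, 7.12 and 7.16 against 6.45, 6.32 and 6.47 (0.68 ± 0.09), and Vegfa differed by 0.52 ± 0.11. The chaperone gene Hspa5 was lower by a small amount (-0.39 ± 0.07). Of 4 named genes of the senescence list, Cdkn1a was higher and the nuclear lamina gene Lmnb1 lower (-0.58 ± 0.16). For Lmnb1 the groups overlapped, at 9.88, 10.07 and 9.94 against 10.76, 10.04 and 10.82, with Atr p53 mutant 2 among the Atr BaxBak mutants.

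Among the 10 lowest genes, Spp1, the secreted protein osteopontin, stood at 6.33, 5.54 and 5.87 against 8.67, 8.88 and 8.78 (-2.86 ± 0.18, 7.26-fold lower, adjusted p = 5.94e-07, limma). It also differed by -1.46 between the controls. The RNA-binding protein gene Igf2bp1 stood at 4.729, 5.002 and 4.640 against 6.82, 6.78 and 6.98 (-2.07), with -0.63 between the controls, and the matrix gene Egfl6 differed by -1.91, with -0.82 between the controls. 2810417H13Rik, the gene of the PCNA-associated factor, differed by -1.71 ± 0.10 while the controls differed by 0.43 in the other direction. 2610318N02Rik (-2.03), A830029E22Rik (-2.06) and the acetylcholine receptor gene Chrnb4 (-1.37) were also in this group. Rbm28 lay under the negative controls in the Atr BaxBak mutants and was at least 3.39-fold lower. For Ubr1, a ubiquitin ligase gene (-1.92), and 1700020I14Rik (-1.61), the brightest probe set differed by -0.49 and -0.23 and did not pass over the array (adjusted p = 0.079 and 0.29, limma).

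The contrast of the controls shares no sample with that of the mutants and shows what differs between the backgrounds without floxed Atr. Both contrasts use the same estimate of spread per probe set, fitted over all 12 samples, so their calls are not independent. Of the 693 probe sets called between the controls, 474 were also called between the mutants, 473 of them in the same direction. These 473 are 68.3% of the control calls and 1.86% of the mutant calls, and 434 of them have no name. The median size of their differences was 1.60 on the log2 scale in both contrasts. The largest were unnamed junctions. JUC1100013452.mm.1 stood between 9.87 and 10.11 in the Atr BaxBak mutants, at 2.33, 2.48 and 2.55 in the Atr p53 mutants, and differed by 7.54 between the mutants and 6.73 between the controls. JUC0700014364.mm.1 went the other way, at 3.78, 2.96 and 3.41 against 9.93, 10.80 and 9.65, and differed by -6.74 between the mutants and -6.76 between the controls.

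**Figure D4:**
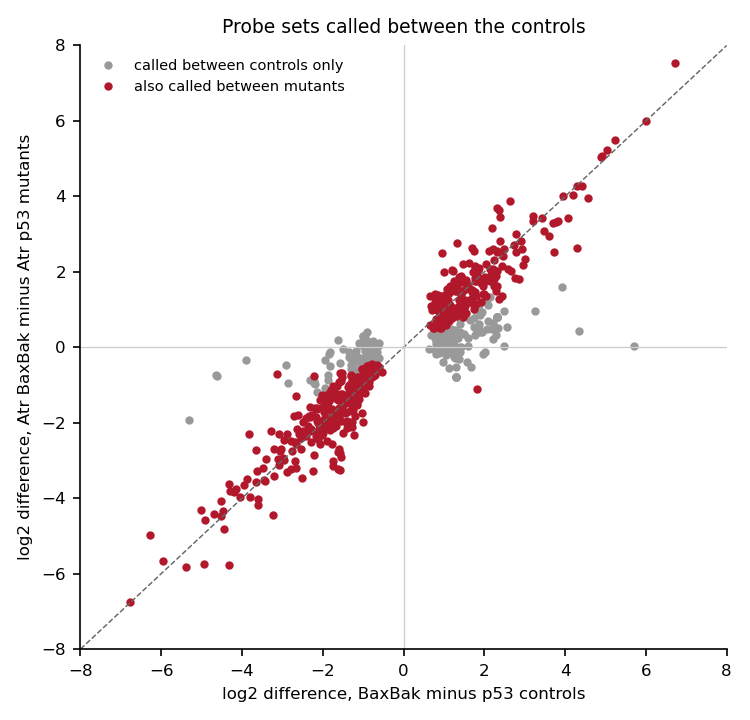
Each point is 1 of the 693 probe sets called between the controls, with its log2 difference between BaxBak and p53 controls on the horizontal axis and between Atr BaxBak and Atr p53 mutants on the vertical axis; the dashed line marks equal differences. Of the 474 red points, also called between the mutants, 473 have the same sign in both contrasts, and some lie far from the line.

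Of the genes called between the mutants, 25 were called by the same rule between the controls in the same direction and 9 in the other; the call of a gene can rest on different probe sets in each contrast. Slc7a3, an amino acid transporter gene, differed by 0.94 ± 0.12 between the mutants and 0.85 between the controls, the clock output gene Dbp by 1.24 and 0.56, the protease gene Pappa by 1.09 and 0.54, and 9430076C15Rik by 1.61 and 0.56. Ppm1k differed by 0.36 and 0.75, but by 0.02 between the mutants on its brightest probe set. In the other direction, after Spp1, the glycosyltransferase gene Galnt15 differed by -2.06 ± 0.11 and -1.32, Napepld, which makes lipid mediators, by -1.26 and -0.65 (but -0.13 between the mutants on the median of its 3 probe sets), Stk3 by -0.39 and -0.85 (but -0.15 between the mutants on its brightest probe set, adjusted p = 0.103, limma), and Pole, the catalytic subunit of a replicative polymerase, by -1.18 ± 0.12 and -0.59. Pole is thus the member of the replication list that was called between the controls too.

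Probe sets called between the controls were more frequent near the genes that were targeted, but not only there. By chromosome their share was highest on chromosome 5 (0.245%), which holds none of these genes but 100 of the 473 shared probe sets. On chromosomes 7, 11 and 17 the shares were 0.22%, 0.181% and 0.185%, with 87, 86 and 52 shared probe sets. The identifiers of the probe sets give their chromosome, and 99.2% could be placed in RefSeq gene order between named neighbours; this placing and the reach used were chosen after values were seen. Within 100 protein-coding genes of Bax on either side, 1.01% of probe sets were called between the controls, against 0.115% on the rest of chromosome 7. Near Bak1 the shares were 0.664% and 0.0568% on chromosome 17, and near Trp53 they were 0.395% and 0.148% on chromosome 11. The calls were not centred on each gene: in bins of 50 genes around Trp53, with negative distances towards the start of the chromosome, the shares were 0.768%, 1.06% and 1.02% at -225, -175 and -125 genes, 0.436% and 0.572% at -25 and 25, and 0.0597% at 75. Around Bak1 they were 1.5% and 1.12% at -75 and -25 and 0.123% at 25. Near Atr (0.0262% and 0.0982%, chromosome 9) and near Atoh1 (0.0514% and 0.0357%, chromosome 6) there was no such rise, and neither gene's status differs between these controls. The stretches around Bax, Bak1 and Trp53 hold 2.86% of the probe sets and 23.9% of the 473 shared ones. Probe sets in a stretch are not independent, so no test was made.

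The same places were denser between the mutants, over a much higher background. The shares called were 6.30% near Bax against 3.93% on the rest of its chromosome, 4.57% against 2.66% near Bak1, and 6.41% against 3.83% near Trp53. Near Atr they were 5.40% and 4.12%, and near Atoh1 3.36% and 3.50%. The run of 50 genes with the most shared probe sets, 37, lay outside these stretches, on chromosome 5 between Ccdc146 and Xrcc2, where 1.67% were called between the controls. The next, with 24, lay inside the stretch around Bax, between Syngr4 and Htatip2, where 2.12% were called. By chromosome, the share called between the mutants ranged from 2.88% (X) to 4.37% (chromosome 9), with 0.143% on Y.

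**Figure D5:**
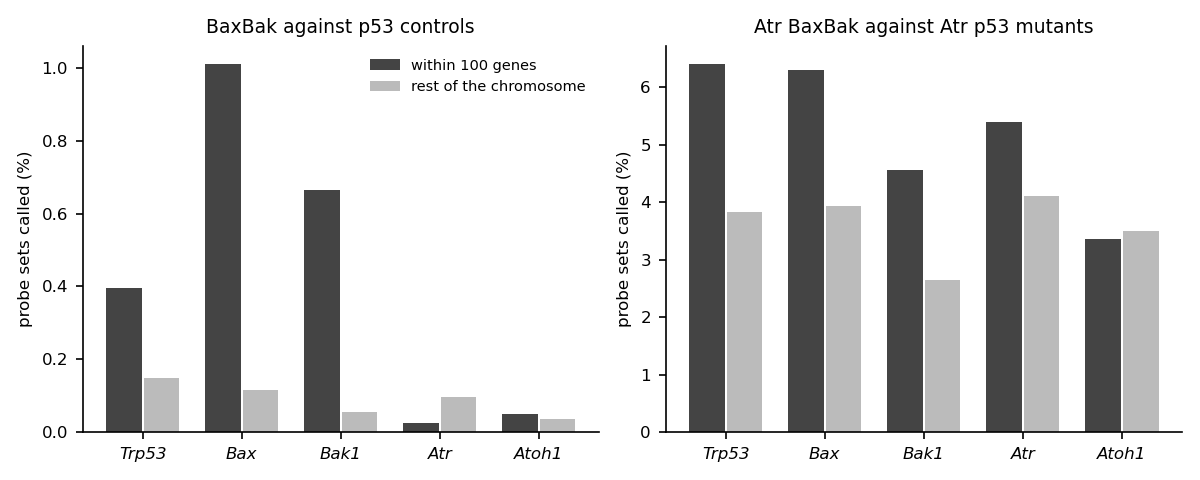
Share of probe sets called (%) within 100 protein-coding genes of each gene on the axis (dark bars) and on the rest of its chromosome (light bars), between the controls on the left and between the mutants on the right, with separate vertical scales. Between the controls the dark bars of Trp53, Bax and Bak1 exceed the light ones, at 0.395%, 1.01% and 0.664%.

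For most of the genes above, the Atr p53 mutants stood close to their own controls. The median difference from the p53 controls was -0.02, -0.07 and -0.06 for the p53 target lists, -0.25 for replication, -0.10 for mitosis and -0.21 for the oligodendrocyte list. Against p53 control 1 alone, which shares their title number, these were 0.01, -0.03, 0.04, -0.18, -0.12 and -0.01, and against the other 2 they were -0.06, -0.08, -0.10, -0.29, -0.11 and -0.24. The Atr BaxBak mutants differed from the BaxBak controls by medians of 0.83, 0.92 and 0.80, -0.91, -0.94 and 0.85. Histone genes were higher in the Atr p53 mutants than in the p53 controls (median 0.18, and 0.08 against p53 control 1 alone). Their list means were 10.28, 10.37 and 10.24 against 10.13, 10.11 and 9.94, without overlap. In the Atr BaxBak mutants against the BaxBak controls the histone median was -0.72. Over all named genes the median was -0.34 for Atr BaxBak mutants against BaxBak controls and -0.03 for Atr p53 mutants against p53 controls. Genes have names because probe sets passed the authors' test of the former contrast, so larger values there are favoured by selection. Each of these comparisons also shares samples with that of the mutants and is given beside it as values only. Of the genes called between the mutants, 32 also passed in the Atr p53 mutants against the p53 controls over the named genes. Hist1h4k, on 1 probe set, was higher by 1.66 in the Atr p53 mutants than in their controls and by 0.76 in the Atr BaxBak mutants than in theirs. Trim66 was higher by 0.89 and 0.88, and the proteasome-bound deubiquitinase gene Usp14, on 1 probe set, by 0.86 and 2.92. BC048502 stood at 0.83 and -0.72 and Ppp2r3a at -0.79 and 1.60, each on 1 probe set.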

How the data were processed

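RNA of 12 cerebella was hybridised to exon and junction arrays (labels' protocols: RNeasy extraction, WT PLUS kit, 500 ng of total RNA; 1 label adds poly-A selection). The log2 values per probe set were used as deposited; per the submitters' processing notes, Partek was among the tools, while background correction, normalization and build are not given in the sources used. Array medians lay between 6.46 and 6.49. Of 725678 rows, 61 without values and 6546 controls were left out. Symbols come from the authors' deposited table of their BaxBak comparison, which lists fold values and p-values (step-up p up to 0.0499973) that were not used otherwise; 687 probe sets with several symbols were left out and 30941 kept. Of the 7920 genes, 3836 rest on 1 probe set and 109 share values with another.

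Tests used limma 3.58.1 in R 4.3.3 (lmFit, eBayes, 4 group means over 12 samples, 8 residual degrees of freedom, two-sided, Benjamini-Hochberg at 0.05) and were tested on simulated data. Errors after ± are limma's standard errors. A gene under its group's negative control mean is given as a bound, the brighter group's mean against, array by array, its own value or the negative control mean, whichever is higher. Members and gene lists (29, of which 28 had named members; the list of sex-linked genes had none) were chosen with earlier results of these data known. Named are Trp53; per list up to 5 called genes with the smallest p and up to 3 against the majority; the 10 highest and 10 lowest called genes with 3 or more probe sets; the 5 highest and 5 lowest shared with the controls; and up to 5 with an Atr p53 effect. Other named list members (Bbc3, Bub1, Ccnb2, Espl1, Atoh1, Gli1, Pdgfra, Col1a1) and the unnamed junctions were chosen after their values were seen, as were the bounds. Some genes that the rule names are not reported here. Alternatives are given in the closing section.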

Additional observations from a re-analysis of the deposited data

Results flagged for a closer look

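The difference between the mutant contrast and the control contrast, tested as an interaction, passed for 582 probe sets over the array. Among the genes named above, 14 had 5 or more probe sets that passed it in 1 direction, and they are listed with the gene's mean difference beyond the controls on the log2 scale. Higher in the Atr BaxBak mutants beyond the control difference were Alox5 (2.46), Cd80 (2.40), Fas (2.29), Tnfrsf10b (1.91), Eda2r (1.76), Trp53inp1 (1.64), Ano3 (1.49), Cdkn1a (1.44), Dcxr (1.42) and Pidd1 (1.26). Lower were 2810417H13Rik (-2.15), Ndc80 (-1.25), Tyms (-0.98) and Cdk1 (-0.96). All 14 rest on probe sets that were named because they passed a comparison with the same Atr BaxBak mutants. Groups of 3 are too small for a check of single outlying samples.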

How the results depend on the processing

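Counts of the mutant contrast kept within 1.5 times of the main 25370 probe sets with a negative control covariate, quantile normalization, array weights, only bright probe sets, only exon regions or a fold of 1.5 or more. They were 42659 with a variance trend, 8077 from the 6 mutants alone (4 residual degrees of freedom), and 9633 to 21103 without 1 sample. Parts of the array fitted alone gave 22001 of 437027 exon regions and 5329 of 282044 junctions. At an unadjusted p under 0.05 (limma) the shares of these parts were 20.8% and 16.2%. The 693 control calls became 1328 with the trend, 246 from the 6 controls alone, and 306 to 754 without 1 sample. The 582 calls beyond the controls became 131 with the negative control covariate (101 higher and 30 lower against 317 and 265), 1175 among bright probe sets (46.6% higher), 3028 with the trend (46.2% higher), 1190 with array weights, and 167 to 1034 without 1 sample (38.4% higher without Atr p53 mutant 2). The 2822 called genes became 972 from the 6 mutants alone (53.4% higher against 41.8%), 1678 among genes with 3 or more probe sets, 5957 by the gene mean alone, and 1381 to 2508 without 1 sample. At an unadjusted p under 0.05, the mutant share on chromosome 9 was 19.5% and the control share on chromosome 5 was 10.9%. The Trp53 difference ranged from 0.85 to 1.18 over its alternatives and passed in each. The cause of these shifts was not tested, and some settings also leave out samples or probe sets.

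Of 135 genes named by rule, 129 passed on the brightest probe set when adjusted over the named genes only. That is a weaker demand than the adjustment over the whole array used above. Over the array, at least the brightest probe sets of Cd80, Dcxr, Ubr1 and 1700020I14Rik did not pass either. Those that did not pass over the named genes were Trp53i11 (-0.26), Bcl2l11 (0.25), Pax6 (-0.21), Barhl1 (-0.14), Ppm1k (0.02) and Stk3 (-0.15). On the median of probe sets, Trp53i11 (-0.29) and Napepld (-0.13) did not pass, nor did Trp53i11 on exon regions only (-0.26). Barhl1 was not called without Atr BaxBak mutant 2 or 3 or Atr p53 mutant 1 or 3. None of the 135 reversed under the alternatives run. With a reach of 50 and 200 genes, chosen after values were seen, the control shares were 1.36% and 0.465% near Bax, 0.645% and 0.476% near Bak1, and 0.492% and 0.462% near Trp53. No paired analysis was possible because replicate numbers here only follow the order of deposit, and the title numbers hold each mutant group whole. With the title number as a random block, an alternative added after seeing the data (correlation 1e-04 over 20000 drawn probe sets), 25357 probe sets were called between the mutants, 693 between the controls and 582 beyond them, and 2821 genes. At so low a correlation this fit is nearly the main one, so these counts are no separate check. Signal over background limits Fas, Igtp and the Zscan4 genes to bounds, and the number of arrays, 3 a group, limits the precision.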
